A study of Homo sapiens with 4 samples.

Results

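The 10 genes described here encode extracellular matrix proteins that hold, release or answer to transforming growth factor β (TGFβ): TGFBI, HTRA1, the latent TGFβ binding proteins LTBP1, LTBP2, LTBP3 and LTBP4, the fibrillins FBN1 and FBN2, EMILIN1 and FN1. They were chosen by gene symbol from the 58365 rows of the deposited expression table, with earlier results of the same comparison already known. A symbol with several rows would have been read from the row with the highest mean level, but each of the 10 symbols had 1 row. The values and tests below therefore describe these genes and are no independent evidence for the choice.

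RNA was sequenced from the human embryonic stem cell line H1, an established line, at day 8 of stepwise hematopoietic differentiation. All 4 samples received activin A (40 ng/ml) and BMP4 (50 ng/ml) for 2 days, then VEGF (40 ng/ml) and bFGF (50 ng/ml) for 3 days, and the same VEGF and bFGF for the final 3 days. In those final days 2 samples were given DMSO, the solvent (DMSO replicates 1 and 2), and 2 were given SB431542, a small molecule that blocks the kinase of the activin and TGFβ type I receptors (SB replicates 1 and 2). The study states that CD31+ cells were collected for sequencing, a step that the sample labels leave out. Its methods speak in general of independent experiments, in a number that is not that of the libraries here, and the labels do not say that these replicates came from separate cultures. The p-values then measure the spread between these libraries, which may be technical.

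TGFβ is secreted in a latent form. Its propeptide stays bound to the mature growth factor and is coupled in most cells to an LTBP, which anchors the complex to fibronectin fibers and fibrillin microfibrils until integrins, proteases or thrombospondin release the ligand. The same matrix proteins are in turn produced under TGFβ signaling in many cells, TGFBI having been named for its induction by TGFβ.

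Levels are given in FPKM, fragment counts scaled to transcript length and to the mapped total of the library, so they may be compared between genes. Tests used limma on log2(FPKM + 1) across the 14909 genes with a mean of at least 1 FPKM in at least 1 group, and all 10 genes were among them. The pseudocount of 1 makes the difference of a low gene look smaller than its ratio. From single-exon genes, whose lowest values step by the worth of 1 fragment, the depth was estimated at between 19.7 M and 26.0 M fragments per library, with 95.8% to 97.3% of such low values within 0.1 of a whole fragment. Replicate numbers also set the libraries apart, with mitochondrial genes at 5.88% and 6.64% of the FPKM sum in replicates 1 and at 9.92% and 10.2% in replicates 2. As these were bulk samples, fewer cells of a type and less RNA per cell cannot be told apart.

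The upstream sequences of 4 of these genes are shown because their transcripts gave the largest differences (HTRA1, TGFBI and FN1) or differed in the opposite direction (LTBP1). Each is the 250 bases before a transcription start in RefSeq (GRCh38.p14), read 5′ to 3′ on the strand of the gene. They lie at chr5:136028738-136028987 (plus strand) for TGFBI, chr10:122461303-122461552 (plus) for HTRA1, chr2:215436069-215436318 (minus) for FN1 and chr2:32946703-32946952 (plus) for the most upstream start of LTBP1. Capitals mark CAGAC, the letters that the DNA-binding domain of SMAD3 and SMAD4 contacts, and TGACGTCA, the cAMP response element, each searched on both strands.

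TGFBI: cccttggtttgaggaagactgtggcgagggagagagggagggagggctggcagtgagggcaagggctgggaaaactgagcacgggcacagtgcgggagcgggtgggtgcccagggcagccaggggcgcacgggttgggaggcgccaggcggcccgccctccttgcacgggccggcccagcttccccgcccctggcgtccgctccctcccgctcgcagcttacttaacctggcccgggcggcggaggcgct
HTRA1: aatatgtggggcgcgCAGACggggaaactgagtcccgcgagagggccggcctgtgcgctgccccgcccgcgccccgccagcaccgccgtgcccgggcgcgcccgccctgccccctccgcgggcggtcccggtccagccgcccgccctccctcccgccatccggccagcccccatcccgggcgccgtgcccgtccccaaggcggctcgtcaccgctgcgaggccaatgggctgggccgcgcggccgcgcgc
FN1: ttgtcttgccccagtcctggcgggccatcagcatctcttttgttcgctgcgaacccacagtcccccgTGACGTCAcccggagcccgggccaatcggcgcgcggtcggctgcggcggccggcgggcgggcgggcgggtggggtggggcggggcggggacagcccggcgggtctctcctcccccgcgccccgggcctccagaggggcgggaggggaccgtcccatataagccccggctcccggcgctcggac
LTBP1: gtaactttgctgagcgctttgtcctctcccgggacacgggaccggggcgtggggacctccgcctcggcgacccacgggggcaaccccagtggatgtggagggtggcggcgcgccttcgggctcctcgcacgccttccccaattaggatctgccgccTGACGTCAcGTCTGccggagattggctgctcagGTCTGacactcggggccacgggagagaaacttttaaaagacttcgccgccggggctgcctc

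The stretch before TGFBI held neither motif, that of HTRA1 held 1 CAGAC, 235 bases before the start, and that of FN1 held 1 TGACGTCA, 183 bases before it. The LTBP1 stretch held both, with TGACGTCA 94 bases before the start and CAGAC at 85 and 61 bases. Of 35116 RefSeq windows of this length, 38.0% held CAGAC and 1.65% held TGACGTCA. Among the 13 windows of the 9 genes with an entry in the table, 5 windows (of HTRA1, LTBP1 and LTBP4) held CAGAC and 2 (of LTBP1 and FN1) held TGACGTCA. The AP-1 motif TGANTCA was in 6.57% of all windows and in 0 of the 13, and the TATA motif TATAAA was in 10.7% and in 0 of the 13. The 2 genes with TGACGTCA had differences of opposite sign between SB and DMSO.

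With DMSO, FN1 and LTBP4 had the highest levels of the 10 genes, and with SB431542 the order changed at the top and at the bottom. FN1 averaged 264 ± 38.6 FPKM and LTBP4 254 ± 112 FPKM with DMSO (SD, n = 2), and their libraries overlapped. LTBP1 and HTRA1 followed at 45.5 ± 3.94 and 43.8 ± 2.99 FPKM, also with overlapping libraries, and then TGFBI at 30.4 ± 0.919 FPKM. Among the next 4 genes, FBN2, LTBP3, EMILIN1 and FBN1, which averaged between 15.1 and 19.9 FPKM, each overlapped its neighbor in the order, and LTBP2 was lowest at 4.21 ± 3.00 FPKM. With SB431542 the order was LTBP4 (155 FPKM), LTBP1 (67.3 FPKM), FN1 (60.5 FPKM), EMILIN1 (30.2 FPKM), LTBP3, FBN2, FBN1, TGFBI, HTRA1 and LTBP2. In that order only LTBP3 and FBN2, and TGFBI and HTRA1, overlapped their neighbor. HTRA1 went from the 4th to the 9th place and FN1 from the 1st to the 3rd.

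**Figure D1:**
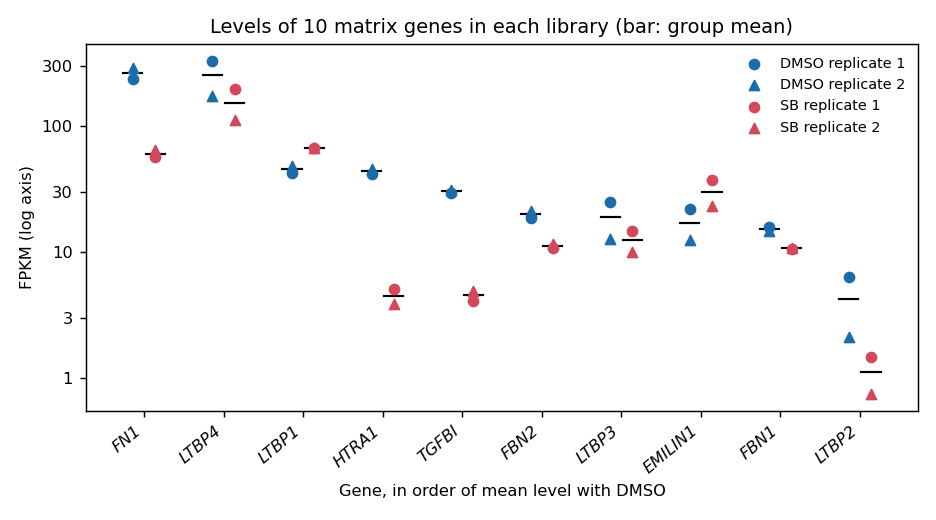
Level of each gene in each library, in FPKM on a log axis, with genes in the order of their DMSO mean, DMSO libraries in blue, SB libraries in red, circles for replicate 1, triangles for replicate 2 and bars for group means. The SB points of HTRA1, TGFBI and FN1 lie far below their DMSO points, those of LTBP1 and EMILIN1 lie above, and LTBP2, LTBP3, LTBP4 and EMILIN1 are spread widely within a group, replicate 1 always being the higher.

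HTRA1 and TGFBI fell with SB431542, and FN1 had the next largest difference. In the fit with group as the only term, HTRA1 and TGFBI were the only 2 of the 10 genes past an adjusted p of 0.05. Among all tested genes 0.107% were lower at that threshold. Of the 10 genes, 8 were lower and 2 (LTBP1 and EMILIN1) were higher with SB431542 within both replicate numbers, against 30.6% and 40.9% of all tested genes. The median log2 difference of the 10 was -0.73, against 0.04 for all tested genes. At an unadjusted p under 0.05, 5 of the 10 genes were lower (HTRA1, TGFBI, FN1, FBN2 and FBN1) and 1 was higher (LTBP1), against 5.16% and 4.80% of all tested genes. Both SB libraries lay below both DMSO libraries for 6 of the 10 genes and above for 2, against 16.0% and 21.5% of all tested genes, while LTBP3 and LTBP4 overlapped. Since the genes were picked with this comparison known, nothing is read from these shares.

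HTRA1 (ENSG00000166033.11, chromosome 10, 122461525 to 122514908, GRCh38) encodes a secreted serine protease that cuts matrix proteins, fibronectin among them. With DMSO it was at 41.7 and 45.9 FPKM, and with SB431542 at 5.04 and 3.89 FPKM. The groups lay far apart, and the mean with SB431542 was 10.2% of the mean with DMSO. The log2 difference was -3.04 (SE 0.19, 95% confidence interval -3.53 to -2.55, limma adjusted p 0.0353), which placed HTRA1 13th among the 14909 genes ordered from the most lowered. An estimated 182 and 185 fragments stood behind its SB values, counted over its principal annotated transcript. Without any 1 of the 4 libraries the difference was between -3.20 and -2.89, and the limma adjusted p was between 0.101 and 0.170.

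TGFBI (ENSG00000120708.16, chromosome 5, 136028895 to 136063818) encodes a secreted protein of fasciclin domains that binds collagens and integrins. It stood at 29.7 and 31.0 FPKM with DMSO and at 4.10 and 4.93 FPKM with SB431542. The libraries of a group lay close together, and the groups were far apart, the SB mean being 14.9% of the DMSO mean. The log2 difference was -2.51 (SE 0.17, 95% confidence interval -2.96 to -2.07, limma adjusted p 0.0365), 24th from the most lowered gene. Its level passed 78.3% of the tested genes with DMSO and 31.2% with SB431542. Without any 1 library the difference was between -2.62 and -2.40, and the limma adjusted p was between 0.137 and 0.182.

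FN1 (ENSG00000115414.18, chromosome 2, 215360440 to 215436172) encodes fibronectin, the fibrillar scaffold on which LTBPs are first laid down. It stood at 236 and 291 FPKM with DMSO and at 56.6 and 64.4 FPKM with SB431542. The groups did not overlap, and the SB mean was 22.9% of the DMSO mean. The log2 difference was -2.10 (SE 0.19, 95% confidence interval -2.59 to -1.62), 44th from the most lowered gene, with a limma adjusted p of 0.0646. FN1 did not pass the threshold in this fit, and with the replicate number as a block its limma adjusted p was 0.00176. The ratio of FN1 to TGFBI, which does not depend on the scaling of a library, was 7.95 and 9.38 with DMSO and 13.8 and 13.1 with SB431542, so with SB431542 less TGFBI was present per FN1 transcript.

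**Figure D2:**
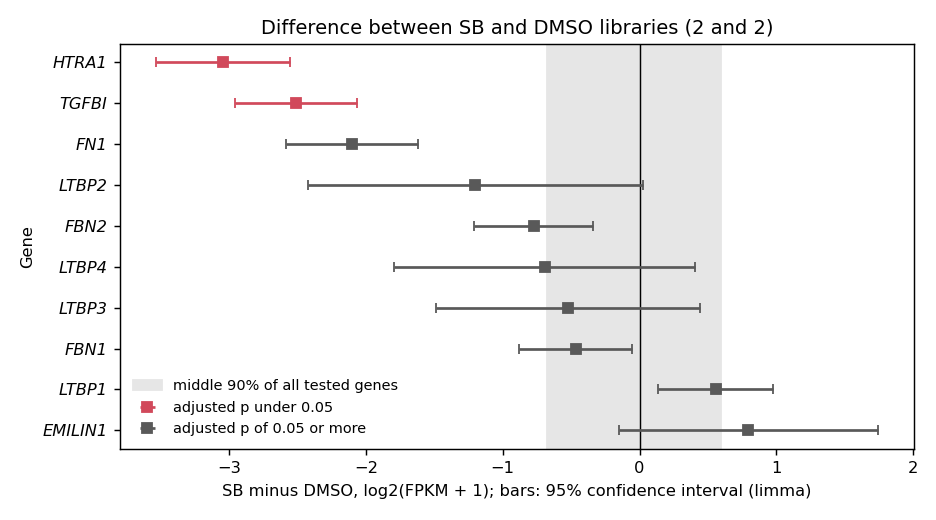
Difference between SB and DMSO libraries for each gene on the log2(FPKM + 1) scale, with squares for the estimate, bars for its 95% confidence interval from limma, red for an adjusted p under 0.05 and a grey band for the middle 90% of all tested genes (-0.67 to 0.59). HTRA1, TGFBI and FN1 lie far left of the band, and the intervals of LTBP2, LTBP3, LTBP4 and EMILIN1 include 0.

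The means of the 4 LTBPs did not all lie on the same side of DMSO, and differences between them were not tested. LTBP1 and LTBP3 bind the latent forms of all TGFβ isoforms, LTBP4 binds that of TGFβ1 only weakly and organizes elastic fibers, and LTBP2 binds fibrillin but no latent TGFβ. None of them passed the adjustment in the fit with group as the only term. With the replicate number as a block, LTBP1, LTBP2 and LTBP4 passed (limma adjusted p 0.0222, 0.0479 and 0.00981) and LTBP3 did not (0.0720). Whether samples with the same number belong together is not known. LTBP1 was the one with higher values with SB431542, and the others had lower means.

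LTBP1 (ENSG00000049323.15, chromosome 2, 32946972 to 33399509) stood at 42.7 and 48.3 FPKM with DMSO and at 66.9 and 67.7 FPKM with SB431542. The groups did not overlap, and the SB mean was 48.0% higher. The log2 difference was 0.56 (SE 0.16, 95% confidence interval 0.14 to 0.98, limma adjusted p 0.365). LTBP1 spans 453 kb and has 3 starts in the RefSeq table, and 1 value per library in the expression table covers them all.

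LTBP4 (ENSG00000090006.17, chromosome 19, 40592883 to 40629818) stood at 333 and 174 FPKM with DMSO and at 197 and 112 FPKM with SB431542. The groups overlapped, since SB replicate 1 was above DMSO replicate 2. For LTBP4 the log2 difference was -0.69 (SE 0.42, 95% confidence interval -1.80 to 0.41, limma adjusted p 0.734), with -0.75 within replicate number 1 and -0.64 within number 2. It was -0.23 without DMSO replicate 1, -1.16 without DMSO replicate 2, -1.10 without SB replicate 1 and -0.29 without SB replicate 2.

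LTBP3 (ENSG00000168056.15, chromosome 11, 65538805 to 65558930) had the same layout at a lower level, with 24.9 and 12.8 FPKM in the DMSO libraries and 14.7 and 9.99 FPKM in the SB libraries. Here too the groups overlapped. For LTBP3 the log2 difference was -0.52 (SE 0.37, limma adjusted p 0.765), with -0.06 without DMSO replicate 1, -0.98 without DMSO replicate 2, -0.78 without SB replicate 1 and -0.26 without SB replicate 2.

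LTBP2 (ENSG00000119681.11, chromosome 14, 74498170 to 74612378) was the weakest of the family, at 6.33 and 2.09 FPKM with DMSO and at 1.47 and 0.743 FPKM with SB431542. The groups did not overlap, but the DMSO libraries differed from each other 3.03-fold. For LTBP2 the log2 difference was -1.20 (SE 0.47, 95% confidence interval -2.42 to 0.02, limma adjusted p 0.510). It was -0.58 without DMSO replicate 1 and -1.82 without DMSO replicate 2. About 160.0 fragments stood behind its lowest value, so counting error was small beside the spread between libraries.

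Within the family, LTBP1 took a larger share and LTBP4 a smaller share of the LTBP transcripts in the SB libraries. LTBP4 made up 81.8% and 73.4% of the summed LTBP FPKM with DMSO and 70.4% and 58.8% with SB431542. LTBP1 made up 10.5% and 20.3% with DMSO and 23.9% and 35.6% with SB431542. The groups did not overlap in either share, and replicate 1 had more LTBP4 than replicate 2 in each group. LTBP4 exceeded LTBP1 by 7.80-fold and 3.61-fold in the DMSO libraries and by 2.95-fold and 1.65-fold in the SB libraries. LTBP3 stayed between 5.25% and 6.12% of the sum in all 4 libraries. The summed level itself overlapped between groups, at 407 and 237 FPKM with DMSO and 280 and 190.2 FPKM with SB431542. Over the 4 sets that leave out 1 library the mean share of LTBP1 was 8.44 to 20.2 percentage points higher with SB431542. The shares are given as a description and were not tested, since with 2 libraries per group an exact permutation test has a smallest two-sided p of 0.333.

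**Figure D3:**
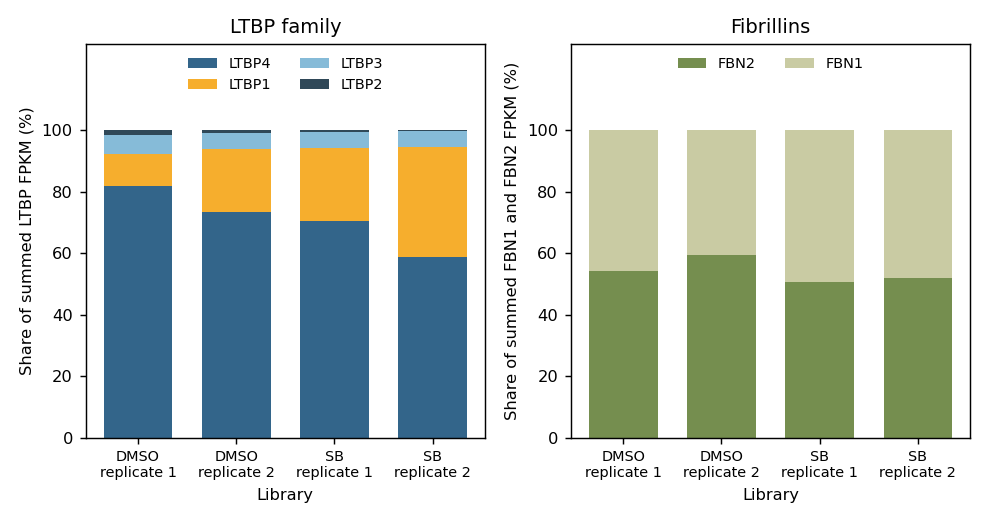
Share of each LTBP in the summed LTBP FPKM (left) and of each fibrillin in the summed FBN1 and FBN2 FPKM (right), in percent, 1 stacked bar per library. LTBP1 takes 10.5% and 20.3% of the bar in the DMSO libraries and 23.9% and 35.6% in the SB libraries, while FBN2 is above FBN1 in all 4 libraries by a margin that is small with SB431542.

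The fibrillins, the rod-like units of the microfibrils to which LTBPs bind, were both lower in both SB libraries, FBN2 by more than FBN1. FBN2 (ENSG00000138829.11, chromosome 5, 128257909 to 128659185), the fibrillin mostly made during development, stood at 18.6 and 21.2 FPKM with DMSO and at 10.9 and 11.6 FPKM with SB431542. The groups did not overlap, and the SB mean was 43.6% lower (log2 difference -0.77, SE 0.17, limma adjusted p 0.245). FBN1 (ENSG00000166147.13, chromosome 15, 48408306 to 48645849), the gene mutated in Marfan syndrome, stood at 15.7 and 14.6 FPKM with DMSO and at 10.6 and 10.7 FPKM with SB431542. These groups did not overlap either, and the SB mean was 29.5% lower (log2 difference -0.47, SE 0.16, limma adjusted p 0.446). Neither fibrillin passed the adjustment in this fit, while both did with the replicate number as a block (limma adjusted p 0.0158 for FBN2 and 0.0469 for FBN1). FBN2 made up 54.2% and 59.3% of the fibrillin FPKM with DMSO and 50.6% and 52.0% with SB431542, a mean difference of -5.50 percentage points. That is close to the gap between the DMSO libraries themselves, although the groups did not overlap.

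EMILIN1 (ENSG00000138080.13, chromosome 2, 27078567 to 27086408) encodes a glycoprotein of elastic fibers that binds the TGFβ1 precursor and hinders its cleavage by furin. It stood at 21.9 and 12.4 FPKM with DMSO and at 37.2 and 23.2 FPKM with SB431542. The groups did not overlap, though SB replicate 2 was only just above DMSO replicate 1. The log2 difference was 0.80 (SE 0.36, 95% confidence interval -0.15 to 1.74, limma adjusted p 0.593), with 0.74 within replicate number 1 and 0.86 within number 2. It ranged from 0.41 without DMSO replicate 2 and 0.47 without SB replicate 1 to 1.13 without SB replicate 2 and 1.19 without DMSO replicate 1.

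The replicate number divided the 10 genes into those that it left close together and those that it spread. LTBP2, LTBP4 and EMILIN1 were at least 1.5 times higher in replicate 1 than in replicate 2 in both groups, as were 8.99% of all tested genes. LTBP3 was 1.95 times higher with DMSO and 1.48 times with SB431542. For TGFBI, HTRA1, LTBP1, FBN1, FBN2 and FN1 the ratio of replicate 1 to replicate 2 was between 0.813 and 1.30 in either group. In a fit with the replicate number as a block, the limma adjusted p was 0.0479 for LTBP2, 0.00981 for LTBP4, 0.0135 for EMILIN1 and 0.0720 for LTBP3. What differed between the replicate numbers is not given in the labels, and what lay behind them was not tested.

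The other genes of the pathway were described with lists, each compared with all tested genes, whose median difference was 0.04. A gene near 0 in 1 group was tested only because the other group passed the filter. Of 19 genes for latent TGFβ ligands, their cell-surface anchors and their activators, 15 were tested and 1 passed the adjustment, THBS1, which rose. Thrombospondin 1 releases TGFβ from its propeptide. It stood at 17.2 and 16.1 FPKM with DMSO and at 78.9 and 71.6 FPKM with SB431542 (log2 difference 2.11, limma adjusted p 0.0463), and it missed the threshold without any 1 of the 4 libraries. At an unadjusted p, 5 of the 15 were higher and 2 lower (all tested genes 4.80% and 5.16%), and the median was -0.20. Among them ITGB3, an integrin chain that pairs with αV, stood at 74.96 and 70.4 FPKM with DMSO and at 134 and 126 FPKM with SB431542 (log2 difference 0.83, limma adjusted p 0.1996). MMP2, a gelatinase, stood at 93.8 and 72.5 FPKM with DMSO and at 28.3 and 24.4 FPKM with SB431542 (log2 difference -1.61, limma adjusted p 0.097).

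The cargo of the LTBPs was also read, these genes being named after their values were seen. TGFB1 stood at 455 and 202 FPKM with DMSO and at 381 and 183 FPKM with SB431542, so that the groups overlapped and replicate 1 was the higher in each (log2 difference -0.20, limma adjusted p 0.966). TGFB2 stood at 8.96 and 7.58 FPKM with DMSO and at 3.51 and 1.05 FPKM with SB431542 (log2 difference -1.60, limma adjusted p 0.308), and TGFB3 was at most 0.385 FPKM in a library. The summed level of LTBP1, LTBP3 and LTBP4 was 0.862 and 1.12 times that of the 3 ligands with DMSO and 0.724 and 1.03 times with SB431542. The groups overlapped in this ratio.

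Of 22 further elastic fiber and microfibril genes 15 were tested, 0 passed the limma adjustment, and 5 were lower and 2 higher at an unadjusted p (all tested genes 5.16% and 4.80%, list median -0.39). ADAMTSL2, a matrix protein that binds LTBP1, stood at 2.82 and 1.68 FPKM with DMSO and at 0.074 and 0.078 FPKM with SB431542 (log2 difference -1.57, limma adjusted p 0.170), and it passed the filter only through its DMSO level. FBLN1, which encodes fibulin 1, stood at 100.025 and 89.0 FPKM with DMSO and at 63.4 and 63.1 FPKM with SB431542 (log2 difference -0.57, limma adjusted p 0.3498). MFAP2, a microfibril component, stood at 47.0 and 30.8 FPKM with DMSO and at 21.5 and 14.7 FPKM with SB431542 (log2 difference -1.05, limma adjusted p 0.3501). For 8 of the 15 tested genes both SB libraries were below both DMSO libraries, and for 3 both were above. The shares of all tested genes were 16.0% and 21.5%. The genes named here are among the 8, but they were picked by their p in this same comparison.

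Of 12 fibronectin partners and relatives of HTRA1 and TGFBI 9 were tested, 0 passed the limma adjustment, and 3 were lower and 2 higher at an unadjusted p (all tested genes 5.16% and 4.80%, list median -0.08). VTN, the gene of vitronectin, stood at 3.59 and 3.84 FPKM with DMSO and at 0.581 and 0.206 FPKM with SB431542 (log2 difference -1.77, limma adjusted p 0.106), and it passed the filter only through its DMSO level. STAB2, a scavenger receptor with fasciclin domains like those of TGFBI, stood at 0.135 and 0.085 FPKM with DMSO and at 2.77 and 2.69 FPKM with SB431542 (log2 difference 1.75, limma adjusted p 0.095), and it passed the filter only through its SB level. ITGA4, a chain of a fibronectin receptor, stood at 2.82 and 3.04 FPKM with DMSO and at 6.05 and 4.98 FPKM with SB431542 (log2 difference 0.73, limma adjusted p 0.311). The other HTRA proteases were named after their values were seen. HTRA2, a mitochondrial protease, and HTRA3 had log2 differences of 0.13 and -0.39 (limma adjusted p 0.893 and 0.705), HTRA4 was at most 0.023 FPKM and not tested, and no difference from HTRA1 was tested.

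All 13 genes of a list of TGFβ response genes were tested, 0 passed the limma adjustment, and 9 were lower and 0 higher at an unadjusted p (all tested genes 5.16% and 4.80%, list median -0.74). CTGF, which encodes a matricellular growth factor modulator, stood at 4.99 and 6.03 FPKM with DMSO and at 0.594 and 0.543 FPKM with SB431542 (log2 difference -2.05, limma adjusted p 0.075). It passed the filter only through its DMSO level, as did CDKN2B, which was named after its values were seen. SKIL, a SMAD corepressor, had a log2 difference of -1.76 (limma adjusted p 0.098), and SMAD7, the inhibitory SMAD, one of -2.05 (limma adjusted p 0.193). On this log2(FPKM + 1) scale, which understates low genes such as CTGF, the differences of HTRA1 and TGFBI were larger than those of the 13. As ratios of means this order did not hold. CTGF went from 5.51 to 0.568 FPKM and CDKN2B from 1.03 to 0.0892 FPKM. HTRA1 went from 43.8 to 4.46 FPKM and TGFBI from 30.4 to 4.52 FPKM.

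**Figure D4:**
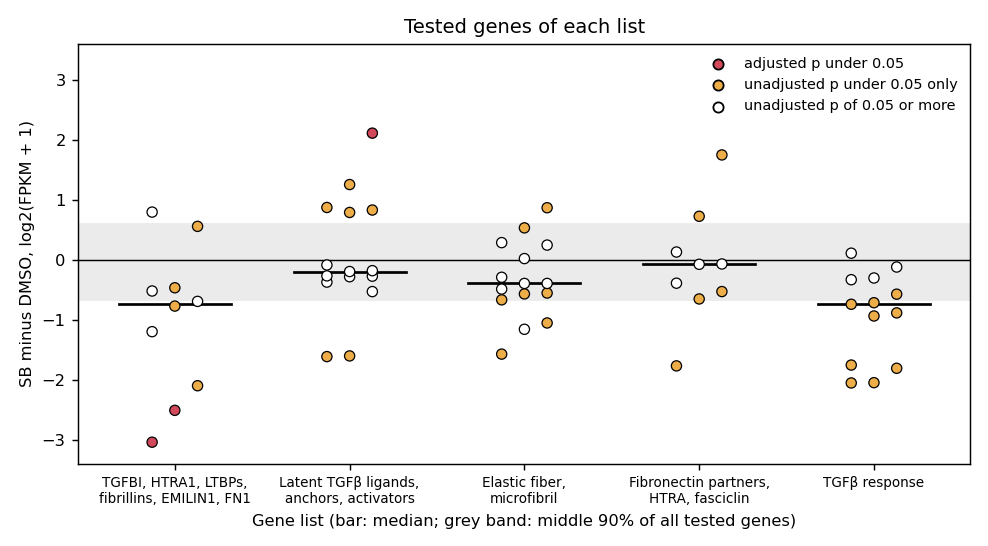
Difference between SB and DMSO on the log2(FPKM + 1) scale for the tested genes of the 10-gene list and of 4 pathway lists, with 1 circle per gene, bars for medians, a grey band for the middle 90% of all tested genes, red for an adjusted p under 0.05 and yellow for an unadjusted p under 0.05 only. HTRA1 and TGFBI are the lowest points of the plot, and THBS1 is the highest.

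Markers of the cell types that such cultures can hold were read beside these results. The 9 endothelial markers, PECAM1 (CD31) among them, were all expressed, with a summed level of 2396 and 2009 FPKM with DMSO and 2253 and 1926 FPKM with SB431542, and 0 of 9 differed at an adjusted or an unadjusted p under 0.05 with limma (all tested genes 5.16% lower and 4.80% higher at the latter). The 6 hematopoietic markers summed to 278 and 265 FPKM with DMSO and to 407 and 380 FPKM with SB431542, of which PTPRC was under 1 FPKM in each library, and of the 5 tested 1 was lower and 3 higher at an unadjusted p, with 0 past the limma adjustment.

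The 11 mesenchymal and fibroblast markers summed to 797 and 623 FPKM with DMSO and to 515 and 408 FPKM with SB431542. Of the 10 tested 6 were lower and 0 higher at an unadjusted p (all tested genes 5.16% and 4.80%). Of these, 0 passed the limma adjustment. This list shares genes with the matrix itself, such as COL1A1 (107 and 78.5 FPKM with DMSO, 17.1 and 14.8 FPKM with SB431542). COL1A1 had the lowest log2 difference of the 10 tested, -2.46, while their median was -0.86 and the highest was -0.16. COL1A2 and LUM were named after their values were seen. COL1A2 was at 112 and 123 FPKM with DMSO and at 87.2 and 96.5 FPKM with SB431542. The fibroblast proteoglycan gene DCN was at most 0.266 FPKM in a library. LUM, another proteoglycan gene, was at 6.63 and 8.79 FPKM with DMSO and at 2.16 and 4.91 FPKM with SB431542. The 7 smooth muscle markers summed to 244 and 235 FPKM with DMSO and to 192 and 194 FPKM with SB431542, with MYH11 and DES under 1 FPKM throughout. Of the 5 tested 3 were lower and 0 higher at an unadjusted p (all tested genes 5.16% and 4.80%). Again 0 passed the limma adjustment. Most of this sum was TPM2, named after its values were seen (mean 135 FPKM with DMSO and 123 FPKM with SB431542), while TAGLN, an actin-binding protein gene, was at 17.8 and 17.4 FPKM with DMSO and at 5.23 and 4.22 FPKM with SB431542 (log2 difference -1.70, limma adjusted p 0.080).

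The 10 endoderm and liver markers summed to 287 and 324 FPKM with DMSO and to 30.4 and 32.9 FPKM with SB431542, and of the 9 tested 8 were lower and 0 higher at an unadjusted p and 4 (AFP, TTR, APOA1 and APOA2) fell past the limma adjustment, while 0 passed without any 1 library (an alternative chosen after seeing the data). Of all tested genes 5.16% were lower and 4.80% higher at an unadjusted p, and 0.107% were lower past the limma adjustment. AFP, the fetal serum protein gene, was at 43.5 and 54.2 FPKM with DMSO and at 3.45 and 3.05 FPKM with SB431542. The SB libraries held 9.93% and 10.8% of the DMSO mean of this sum, beside 11.5% and 8.87% for HTRA1, 13.5% and 16.2% for TGFBI and 21.5% and 24.4% for FN1. ALB was under 1 FPKM in each library, and no marker of the 5 lists was at 0 in all 4. The part of endoderm and liver cells, or of mesenchymal cells, in the lower levels of HTRA1, TGFBI and FN1 was not tested.

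**Figure D5:**
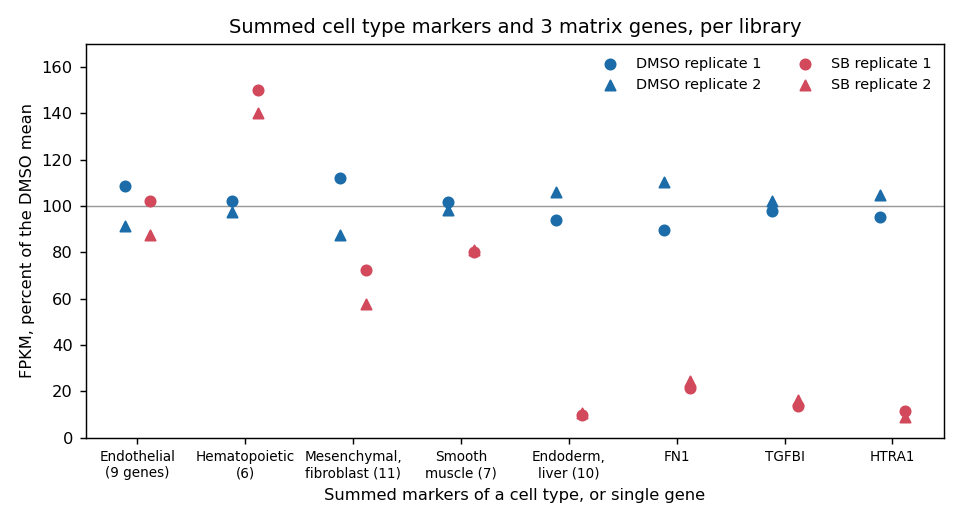
Summed FPKM of the markers of 5 cell types and FPKM of FN1, TGFBI and HTRA1 in each library, as a percentage of the DMSO mean, with DMSO in blue, SB in red, circles for replicate 1 and triangles for replicate 2. The endothelial sum overlaps between groups, and the endoderm and liver sum lies at 9.93% and 10.8% in the SB libraries, near HTRA1 at 11.5% and 8.87%.

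Profiles over the 4 libraries were compared with those of TGFBI and FN1 by the Euclidean distance between log2(FPKM + 1) values centered on each gene's mean. Nearest to TGFBI were S100A14 (distance 0.17), CRHBP (0.35), which encodes a corticotropin-releasing hormone binding protein, and ACTC1 (0.40), the cardiac actin gene. CRHBP, for example, stood at 72.8 and 79.7 FPKM with DMSO and at 11.9 and 10.2 FPKM with SB431542. Nearest to FN1 were ANKRD1 (distance 0.11), Metazoa_SRP (0.13), a signal recognition particle RNA row, and SERPINA1 (0.16), the gene of the serum protein α1-antitrypsin. Metazoa_SRP was listed at 0 in both SB libraries. The levels of these 3 were at most 6.78 FPKM, far below that of FN1. All 3 passed the filter only through their DMSO level (SB means 0.347 FPKM for ANKRD1 and 0.564 FPKM for SERPINA1). The same holds for ACTC1, whose SB mean was 0.598 FPKM. The pseudocount of 1 makes such differences look smaller, so nearness on this scale is not an equal ratio of SB to DMSO. With 4 libraries in 2 groups such distances mostly reflect the difference between the groups, and they are given as a description.

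Neighboring genes could add fragments to some rows, as strand use in counting is not stated. Exons of FBN2 overlap those of SLC27A6 on the other strand, which was at most 0.256 FPKM in a library. HTRA1, LTBP1 and LTBP2 overlap non-coding genes on the other strand, of which that at LTBP2 was listed at 0 in all 4 libraries.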

How the data were processed

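RNA-seq was performed by a service company per the study, from total RNA with an Illumina TruSeq RNA kit. The submitters' processing notes name BWA, Bowtie and RSEM, without roles or versions, and the build hg19. The loci in the deposited row names are nevertheless those of GRCh38: 95.5% of the identifiers matched GENCODE release 29 and 99.8% of these had the same position once counted from 1, so coordinates are given on GRCh38. The authors deposited FPKM values, 1 column per library, and no scaling between libraries is stated.

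Groups came from the sample titles (2 DMSO and 2 SB libraries). Values were transformed to log2(FPKM + 1), and genes with a mean of at least 1 FPKM in at least 1 group entered a limma fit (version 3.58.1, R 4.3.3, with empirical Bayes with a trend, group as the only term, two-sided p adjusted over all 14909 genes by the Benjamini-Hochberg method, threshold 0.05). The fit was run on simulated data with independent normal errors and no effect of replicate number. That run does not show how the fit behaves with the spread between replicate numbers seen here. Depth was estimated from single-exon genes of at least 1000 nt with 1 transcript, and fragments behind a gene from its principal transcript; both are approximations.

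The genes and lists were chosen with earlier results of these data known. Besides the 10 genes, up to 3 genes per list with the smallest unadjusted p and the 3 nearest profiles were named. Other genes of the lists were named after their values were seen. That is stated beside each of them, except for the markers PECAM1, PTPRC, DCN, MYH11, DES, APOA2 and ALB. No gene set test was run. Promoter sequences are from RefSeq (GRCh38.p14), in which 9 of the 10 genes had an entry. Alternatives were other filters, scalings, a pseudocount of 0.1, a fit without the trend, the replicate number as a block, and removal of each library.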

Additional observations from a re-analysis of the deposited data

How the results depend on the processing

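All 119 values of the 10 genes under the alternatives kept their direction, but for many of them this was fixed in advance. Other filters, the replicate block and the fit without the trend leave the estimate of a gene unchanged. Leaving out 1 library cannot reverse a gene whose groups do not overlap. No robustness is therefore read from this count. The adjusted calls were less stable. Without the filter on low values 0 of the 10 genes passed (2 in the reported fit), as did 0 of all genes (20 reported), with limma adjusted p of 0.3005 for both HTRA1 and TGFBI. Leaving out 1 library gave 0 of the 10 genes (range 0 to 0) and 0 to 14 of all genes, the lowest without DMSO replicate 1, with 10 without SB replicate 1 and 9 without SB replicate 2. Quantile normalization gave 31 of all genes. The median difference of the 10 genes ranged from -1.07 (without DMSO replicate 2) to -0.50 (without DMSO replicate 1). The cause of these changes was not tested.

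With the replicate block, 9 of the 10 genes (LTBP3 excepted) and 1564 of all genes passed. The pathway lists then gave 4 lower and 4 higher latency and activation genes (0 and 1 reported), 6 lower and 2 higher elastic fiber genes, 3 lower and 2 higher fibronectin partners and relatives, and 8 lower response genes (0 reported in each). At an unadjusted p the block gave 8 lower latency genes (2 reported) and 10 lower elastic fiber genes (5 reported). The deviations of DMSO and SB libraries with the same number correlated across genes (Pearson's r 0.528, 14909 genes). The labels do not say what a number marks, so whether samples with the same number share a culture is not known.

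THBS1, the 1 higher latency gene, was not called without the filter, without the trend or without any 1 library (0 genes in each). At an unadjusted p, 3 latency genes were higher without the filter. Under the stricter filter 2 elastic fiber genes were lower and 0 fibronectin partners were higher, fewer genes being tested, and 8 elastic fiber genes were lower after rescaling without mitochondrial and RN7SL RNAs. Leaving out 1 library gave 1 to 2 lower and 2 to 5 higher latency genes, 1 to 5 lower and 0 to 1 higher elastic fiber genes, 1 to 2 lower and 1 to 2 higher fibronectin partners, and 5 to 7 lower response genes. Under the stricter filter LTBP2 was not tested. No symbol had several rows, so the alternative of summing rows gave no value.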
